A study of Mus musculus with 18 samples.

Results

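The 8 genes described here encode the Toll-like receptors (TLRs) that act at the cell surface, Tlr1, Tlr2, Tlr4, Tlr5 and Tlr6, and 3 proteins that work with or beside them, Cd14, Ly96 and Cd180. They were taken by symbol from the 30530 genes of the count table, and each symbol matched 1 row. All 8 passed the filter on low counts, with 12741 genes in all.

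RNA was measured in bone-marrow-derived macrophages, cells differentiated in culture from mouse marrow. The study asked how the oxysterol 25-hydroxycholesterol (25HC), the product of the enzyme encoded by Ch25h, bears on the response to Pam3CSK4 (PAM3), a synthetic triacylated lipopeptide. Macrophages of C57BL/6 mice (B6) formed 4 groups, namely untreated or given 5 µM 25HC for 18 hours, each at rest or stimulated with 300 ng/mL PAM3. Macrophages of Ch25h-/- mice, which cannot make 25HC through this enzyme and were given none, formed 2 groups, at rest and with PAM3. Each group held 3 libraries, numbered by mouse, so that the 18 libraries form 6 groups. All errors are SD over n = 3 libraries or standard errors (SE) of a fit, as stated. The stimulation time is listed as 18 for PAM3 and 0 for rest, with no unit. It is not given how long resting cells were kept, so PAM3 and time in culture cannot be told apart. The age and sex of the mice and how the Ch25h allele was made are not stated in the sources used here.

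TLR2 binds bacterial lipopeptides as a dimer, with TLR1 for triacylated ligands such as PAM3 and with TLR6 for diacylated ligands. TLR4 binds lipopolysaccharide through MD-2, the product of Ly96, and CD14 hands lipopolysaccharide and lipopeptides to both receptors. TLR5 binds flagellin, and CD180, with its partner MD-1 (gene Ly86), is a TLR4-like surface protein that lacks the TIR signalling domain. Macrophages carry most of these proteins, and their amounts change when the cells meet microbial products.

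Library totals ran from 14040513 to 150440297 counts, and levels are given as CPM, the usual counts relative to library size, here on sizes scaled with TMM factors. The macrophage markers Csf1r, Cd68, Lyz2 and Emr1 (F4/80) were present in every library, and the 6 macrophage markers in the file summed to between 17023 and 54816 CPM. Ch25h had 0 to 2 counts in each Ch25h-/- library and 1.66 to 40.8 CPM in each B6 library. Its mean was lower with PAM3, at 2.45 against 11.2 CPM at rest in untreated B6 cells and 4.01 against 27.6 CPM after 25HC. Libraries of mouse 2 stood furthest from the others of their group in every group but untreated B6 cells with PAM3. This was read from a chi-square per gene between pairs of libraries, which also grows with depth. In untreated B6 cells at rest it was 197 and 165 for pairs with mouse 2 and 24.9 for mice 1 and 3. In Ch25h-/- cells at rest it was 123 and 83.6, and 12.5. Its source was not tested. The Ch25h-/- library at rest from mouse 2 had the lowest total. It also had the highest sum over 7 neutrophil and progenitor markers, at 69.3 CPM. Every Ch25h-/- library lay above every untreated B6 library in the same state for this sum. At rest it ran from 13.0 to 69.3 CPM in Ch25h-/- and from 4.296 to 6.42 CPM in untreated B6 libraries. With PAM3 it ran from 10.97 to 23.3 CPM and from 4.904 to 9.45 CPM. The part of such cells in the genotype comparisons was not tested. Where leaving out the Ch25h-/- library at rest of mouse 2 changed a call, or a fold by over 1.5 times, the value without it is given.

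The members moved in different directions under each treatment. In what follows a gene is called at an adjusted p below 0.05 in edgeR's quasi-likelihood test, with Benjamini-Hochberg adjustment over all tested genes. With 25HC at rest, Cd14 rose and Tlr1, Tlr6, Tlr4 and Ly96 fell, 1 higher (14.8% of all tested genes) and 4 lower (11.4%), together 5 of 8 members where 26.2% of all tested genes were called. With 25HC and PAM3 against PAM3 alone, Tlr2, Tlr4 and Cd14 were higher and Tlr1, Ly96 and Cd180 lower, 3 higher (21.5% of all tested genes) and 3 lower (23.6%), together 6 of 8 against 45.1%. PAM3 changed all 8 members in untreated B6 cells, 5 higher (31.3% of all tested genes) and 3 lower (30.8%), where 62.1% were called. In 25HC-treated cells it changed 8 of 8, 6 higher (28.5%) and 2 lower (30.4%), where 58.9% were called. It changed 6 of 8 in Ch25h-/- cells, 4 higher (29.9%) and 2 lower (32.1%), where 62.0% were called. The response to PAM3 differed with 25HC for 4 members, 3 higher (12.5% of all tested genes) and 1 lower (15.8%), where 28.3% were called.

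The libraries of the 2 compared groups did not overlap for 6 of 8 members with 25HC at rest (42.4% of all tested genes) and 6 of 8 with 25HC and PAM3 (58.4%). They did not overlap for 8 of 8 with PAM3 in untreated B6 cells (63.0%), 8 of 8 in 25HC-treated cells (72.6%) and 6 of 8 in Ch25h-/- cells (67.0%). The median log2 change over the 8 members was -0.59 for 25HC at rest, -0.25 for 25HC with PAM3, 0.72 for PAM3 in untreated B6, 1.12 for PAM3 in 25HC-treated B6 and 0.40 for PAM3 in Ch25h-/- cells. Over all tested genes the same medians lay between -0.04 and 0. Scaling moved the split of all called genes for PAM3: 50.4% of them were higher in untreated, 48.4% in 25HC-treated and 48.2% in Ch25h-/- cells, and 36.2%, 33.7% and 36.9% on library totals alone. None of the called changes of the 8 members changed sign with scaling.

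**Figure D1:**
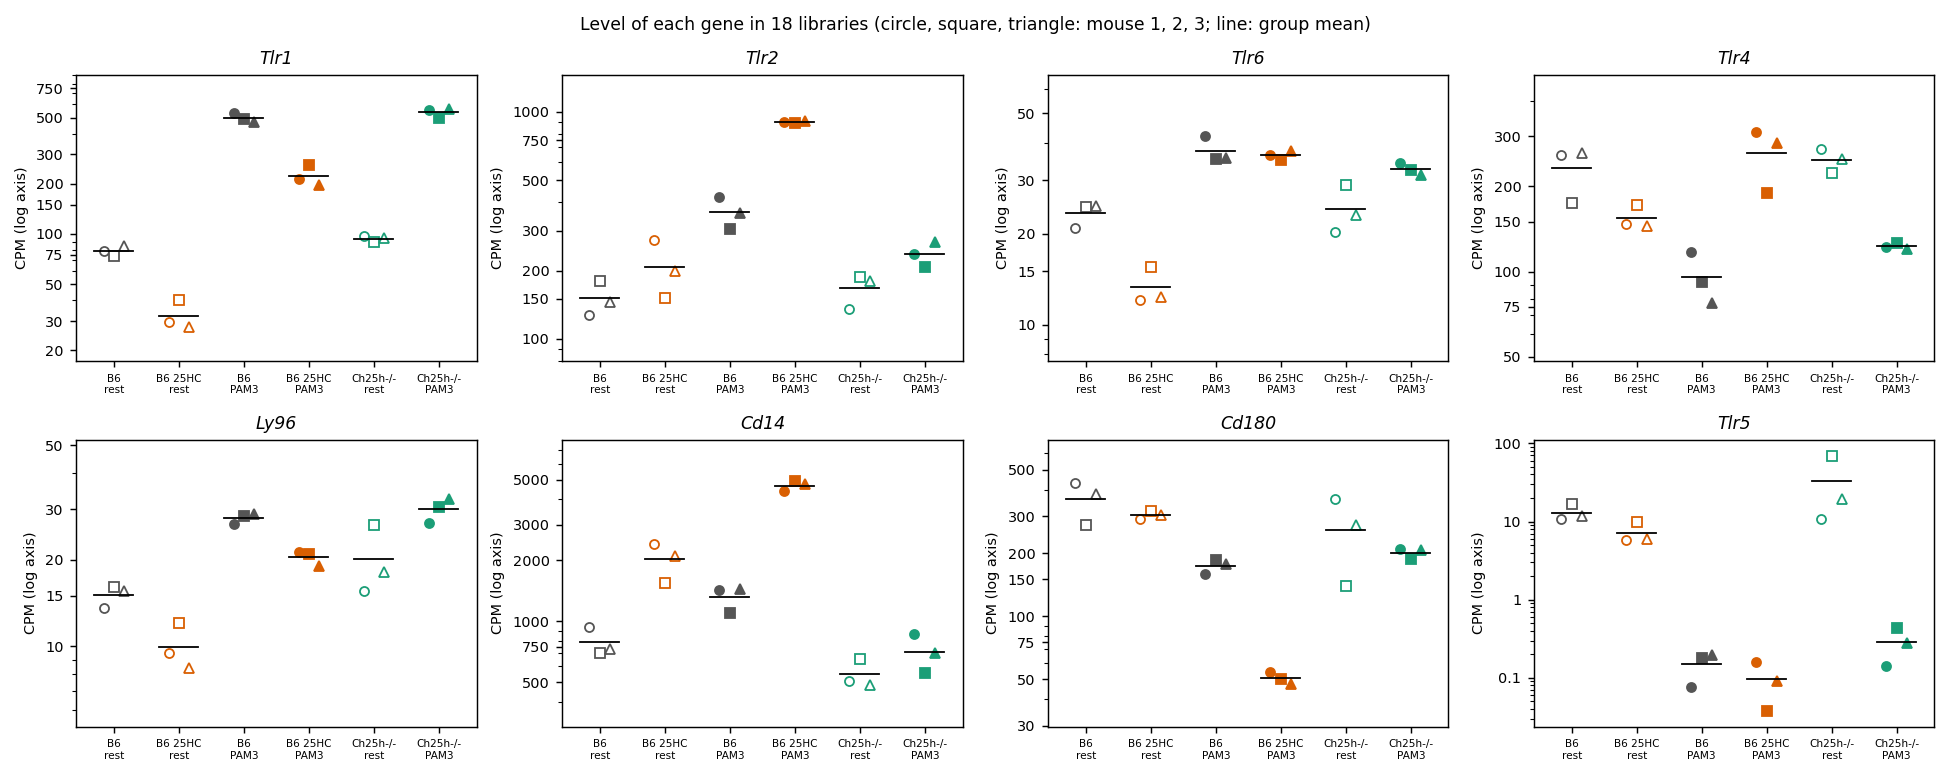
Level of each gene in CPM (log axis) in the 18 libraries, by group. Open symbols are cells at rest, filled symbols cells with PAM3, circles, squares and triangles mice 1, 2 and 3, and lines group means. Tlr1 with PAM3 stands above every resting library in all 3 pairs of groups, Tlr2 and Cd14 are highest with 25HC and PAM3 (means of 902 and 4685 CPM), and Tlr5 lies below 1 CPM in all PAM3 libraries.

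The TLR2 dimer partners Tlr1 and Tlr6 are neighbours on the minus strand of chromosome 5 (GRCm38, GENCODE M21). Tlr1 spans chr5:64924679-64933563 and Tlr6 chr5:64952031-64960097, with 18467 bp between them, and Tlr2 lies at chr3:83836272-83841767 on the minus strand. Tlr1 and Tlr6 transcripts have 454 windows of 50 bases in common, 13.6% of the windows of Tlr1 and 12.3% of those of Tlr6. Reads from these stretches cannot be placed by sequence alone, so that part of each gene's count is uncertain. Tlr2 has no such window. With PAM3 untreated B6 cells averaged 499 CPM of Tlr1 and 37.7 CPM of Tlr6, so misplaced reads would weigh more on Tlr6. The part of Tlr1 reads in the Tlr6 levels and changes was not tested. RefSeq promoters (GRCm38.p6, 250 bases before to 50 after a start) were found for 5 of the 8 members, 8 promoters in all. Those of the 3 genes of the lipopeptide receptor are shown because their fitted changes with 25HC differed in sign. Capitals mark matches to a PU.1 box in Tlr1 (chr5:64933509-64933808, minus strand), to the NF-kB consensus in Tlr2 (chr3:83841559-83841858, minus strand) and to the ISRE core in Tlr6 (chr5:64959117-64959416, minus strand).
Tlr1: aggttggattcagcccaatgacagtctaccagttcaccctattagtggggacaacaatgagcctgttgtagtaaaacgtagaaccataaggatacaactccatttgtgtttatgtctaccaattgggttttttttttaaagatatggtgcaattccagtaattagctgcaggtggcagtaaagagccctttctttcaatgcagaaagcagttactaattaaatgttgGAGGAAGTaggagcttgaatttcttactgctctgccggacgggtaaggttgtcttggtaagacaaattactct
Tlr2: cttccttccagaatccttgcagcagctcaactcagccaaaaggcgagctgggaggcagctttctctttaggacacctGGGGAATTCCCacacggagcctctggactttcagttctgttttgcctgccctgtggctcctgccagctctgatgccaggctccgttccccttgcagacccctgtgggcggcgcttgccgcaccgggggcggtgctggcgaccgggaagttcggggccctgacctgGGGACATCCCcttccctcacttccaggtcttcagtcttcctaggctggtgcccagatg
Tlr6: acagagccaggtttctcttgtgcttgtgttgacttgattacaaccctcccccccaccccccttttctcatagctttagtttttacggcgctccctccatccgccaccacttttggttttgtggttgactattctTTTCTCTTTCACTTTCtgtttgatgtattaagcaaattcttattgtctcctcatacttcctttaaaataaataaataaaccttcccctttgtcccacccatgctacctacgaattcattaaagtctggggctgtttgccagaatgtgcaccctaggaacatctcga
Both strands were searched for 7 motifs. The PU.1 box (GAGGAAGT) began at -23 from the Tlr1 start and is held by 3.20% of 32851 promoters of the same length. The NF-kB consensus occurred in Tlr2 at -173, -172 and -8, of which the first 2 overlap, and is held by 8.46% of promoters. The ISRE core (TTTCNNTTTC) occurred in Tlr6 at -116 and -110, overlapping, and is held by 3.44%. A GAS (TTCNNNGAA, 8.30% of promoters) was present in the promoters of the other start sites of Tlr1, at -228, and of Tlr6, at -3 and 8. That promoter of Tlr6 also held TATAAA (13.6% of promoters) on the minus strand. AP-1 (TGANTCA, 7.81% of promoters) and CRE (TGACGTCA, 1.79%) matched none of the 8 promoters, and those of Tlr5 and Cd180 held none of the 7 motifs. A match describes letters only, and no match says nothing of a factor.

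Tlr1, the partner for the triacylated ligand used here, was lowered by 25HC in both states and raised by PAM3 in all 3 kinds of cells. In untreated B6 cells at rest it stood at 79.2, 73.7 and 84.4 CPM in mice 1, 2 and 3. The 25HC-treated cells had 29.5, 40.05 and 27.5 CPM. With PAM3 the values were 533, 492 and 473 CPM without and 213, 258 and 197 CPM with 25HC. The 25HC-treated libraries lay below the untreated ones in both states with no overlap. The fall was 2.45-fold at rest (log2 change -1.29 ± 0.14 SE, edgeR adjusted p = 3.48e-05) and 2.24-fold with PAM3 (-1.17 ± 0.13, adjusted p = 1.01e-05), lower in 3 of 3 mice each time. PAM3 raised Tlr1 6.31-fold in untreated (2.66 ± 0.14, edgeR adjusted p = 1.98e-09), 6.88-fold in 25HC-treated (2.78 ± 0.14, adjusted p = 1.52e-09) and 5.75-fold in Ch25h-/- cells (2.52 ± 0.14, adjusted p = 3.64e-09). The difference between the PAM3 responses with and without 25HC was 0.13 on the log2 scale, with a 95% interval from -0.29 to 0.54 and an edgeR adjusted p of 0.647. Tlr1 with 25HC and PAM3 therefore lay between the resting and the PAM3-stimulated untreated cells, apart from both, at 223 ± 31.4 CPM (SD).

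Tlr2, the subunit common to both dimers, was higher with 25HC where PAM3 was present. Its levels in untreated B6 cells at rest were 127, 180 and 145 CPM. With 25HC they were 273, 151 and 198 CPM. These ranges overlap, and the change at rest of 0.46 ± 0.20 (log2, SE) was higher in 2 of 3 mice with an edgeR adjusted p of 0.0941. Without the 25HC-treated library at rest of mouse 2 it was 0.64 with an adjusted p of 0.0202. With PAM3 the untreated cells had 420, 306 and 358 CPM and the 25HC-treated cells 900, 892 and 913 CPM of Tlr2, with no overlap. That difference was 2.50-fold (1.32 ± 0.20, edgeR adjusted p = 8.7e-05), higher in 3 of 3 mice. PAM3 raised Tlr2 2.40-fold in untreated (1.26 ± 0.20, adjusted p = 5.99e-05) and 4.35-fold in 25HC-treated cells (2.12 ± 0.20, adjusted p = 7.04e-07). The 2 responses differed by 0.86 ± 0.28 (interaction, edgeR adjusted p = 0.0319, against 28.3% of all tested genes called). This call was lost when any of 8 libraries was left out, with adjusted p-values up to 0.0826, and the interaction was 0.43 (adjusted p = 0.175) without replicate 2 of every group.

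In Ch25h-/- cells Tlr2 went from 136, 186 and 180 CPM at rest to 238, 208 and 266 CPM with PAM3, 1.42-fold (0.50 ± 0.20, edgeR adjusted p = 0.0366). The call was lost in 7 of 27 alternatives. These were upper quartile factors (0.37, adjusted p = 0.107), library totals alone (0.34, adjusted p = 0.128) and 5 single libraries left out, with adjusted p from 0.0501 to 0.16. The 5 were Ch25h-/- mice 1 and 3 at rest, Ch25h-/- mice 1 and 3 with PAM3 and the 25HC-treated mouse 3 at rest. With PAM3 all 3 Ch25h-/- libraries lay below all 3 untreated B6 libraries, by 0.61 ± 0.20 on the log2 scale with an edgeR adjusted p of 0.163.

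Tlr6, the partner for diacylated ligands, was low in all groups and was lowered by 25HC at rest. It had 20.9, 24.5 and 24.7 CPM in untreated B6 cells at rest and 12.1, 15.5 and 12.4 CPM after 25HC, with no overlap. With PAM3 it had 42.0, 35.2 and 35.7 CPM without and 36.5, 35.0 and 37.7 CPM with 25HC, which overlap. The fall at rest was 1.75-fold (-0.81 ± 0.13 SE, edgeR adjusted p = 0.000797), while with PAM3 the difference was -0.05 with a 95% interval from -0.33 to 0.24 (adjusted p = 0.792). The PAM3 response was 1.61-fold in untreated and 2.73-fold in 25HC-treated cells, and the 2 responses differed by 0.76 ± 0.19 (edgeR adjusted p = 0.0087). The response in Ch25h-/- cells was 1.36-fold (0.44 ± 0.13, edgeR adjusted p = 0.00949). That last call was lost with upper quartile factors (0.31, adjusted p = 0.0708), on library totals alone (0.29, adjusted p = 0.0833) and without the Ch25h-/- library at rest of mouse 1 (0.32, adjusted p = 0.0629).

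The balance of the 3 lipopeptide receptor transcripts was read from counts per kb of exonic length, with a prior of 0.5 count, in each library. Tlr1 per Tlr2 was 0.560, 0.370 and 0.526 in untreated B6 cells at rest and 0.0972, 0.239 and 0.125 after 25HC. With PAM3 it was 1.14, 1.45 and 1.19 without 25HC, 0.213, 0.260 and 0.194 with it, and 2.10, 2.14 and 1.92 in Ch25h-/- cells. Tlr1 thus exceeded Tlr2 in all 6 libraries that had PAM3 and no 25HC, and was the lower of the pair in the other 12. With 25HC the ratio was 3.35-fold lower at rest and 5.67-fold lower with PAM3, and in Ch25h-/- cells with PAM3 it was 1.64-fold higher than in B6 cells. None of these ranges overlap, and each has an exact permutation p of 0.1 (two-sided), the smallest that 3 libraries against 3 allow. The log2 ratio was 1.39 higher with PAM3 in untreated and 2.01 higher in Ch25h-/- cells, also with no overlap and an exact permutation p of 0.1. Ranges overlap for PAM3 in 25HC-treated cells (0.63, exact permutation p = 0.3) and for genotype at rest (0.09, p = 0.8). These belong to a family of 35 comparisons of ratios, so none can pass an adjusted threshold. Tlr1 per Tlr6 averaged 3.77 in untreated B6 cells at rest, 2.68 after 25HC, 14.8 with PAM3 and 6.77 with 25HC and PAM3.

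**Figure D2:**
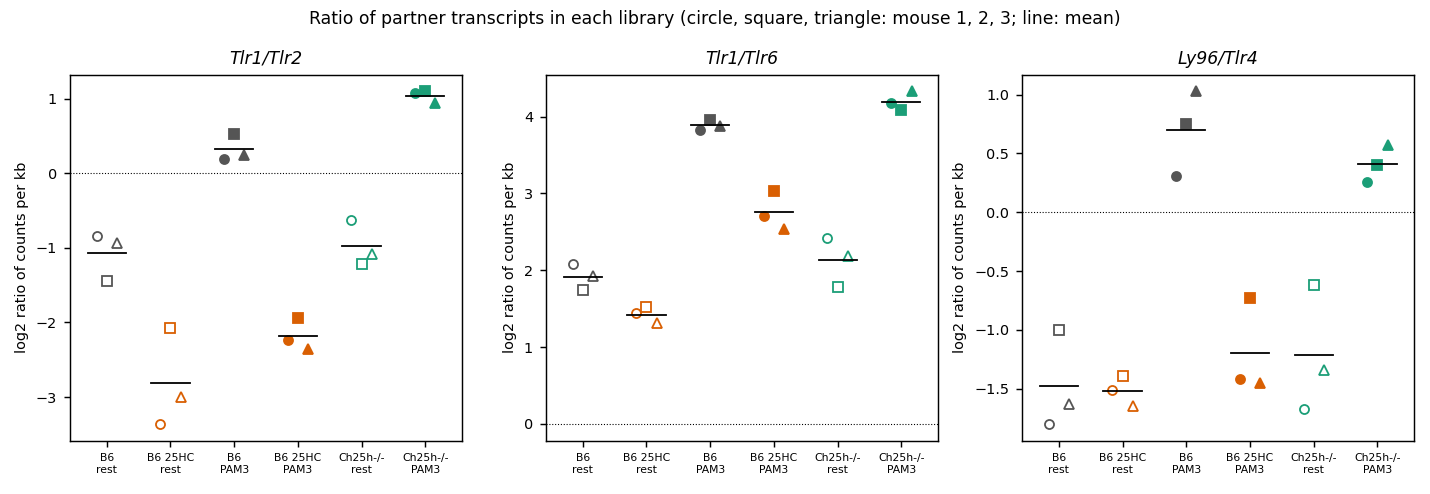
Log2 ratio of counts per kb for Tlr1 to Tlr2, Tlr1 to Tlr6 and Ly96 to Tlr4 in each library, by group (open symbols at rest, filled with PAM3, lines means). Tlr1 to Tlr2 lies above 0 only in the untreated B6 and Ch25h-/- libraries with PAM3 (means of 0.33 and 1.04), and Ly96 to Tlr4 is above 0 in those libraries alone (0.69 and 0.41).

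Tlr4, the lipopolysaccharide receptor (chr4:66827584-66930284, plus strand), showed the PAM3 response that differed most with 25HC among the 8 genes. Untreated B6 cells had 259, 174 and 263 CPM at rest and 117, 92.0 and 77.2 CPM with PAM3. The 25HC-treated cells had 147, 171 and 145 CPM at rest and 310, 189 and 285 CPM with PAM3. PAM3 left all untreated libraries below, and all 25HC-treated libraries above, their resting counterparts. Within mice 1, 2 and 3 the level with PAM3 was 0.453, 0.528 and 0.294 of that at rest in untreated cells, and 2.11, 1.10 and 1.97 of it after 25HC. The fitted changes were a 2.43-fold fall (-1.28 ± 0.19 SE, edgeR adjusted p = 4.31e-05) and a 1.69-fold rise (0.76 ± 0.19, adjusted p = 0.00329). The difference between them was 2.04 ± 0.27 (edgeR adjusted p = 0.000273). In Ch25h-/- cells Tlr4 fell too, from 270, 223 and 250 CPM to 122, 126 and 120 CPM, 2.02-fold (-1.01 ± 0.19, edgeR adjusted p = 0.000349).

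Read across treatments, 25HC lowered Tlr4 at rest and raised it with PAM3. At rest the fall was 1.5-fold (-0.59 ± 0.19, edgeR adjusted p = 0.0347), with every 25HC-treated library below every untreated one. That call was lost on library totals alone (-0.55, adjusted p = 0.0555), with only the compared groups in the fit (-0.60, adjusted p = 0.0563) and without untreated mouse 1 or 3 or 25HC-treated mouse 1 or 3 (adjusted p up to 0.126). With PAM3 the 25HC-treated cells had 2.74-fold more Tlr4 (1.45 ± 0.20, edgeR adjusted p = 3.32e-05), higher in 3 of 3 mice.

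**Figure D3:**
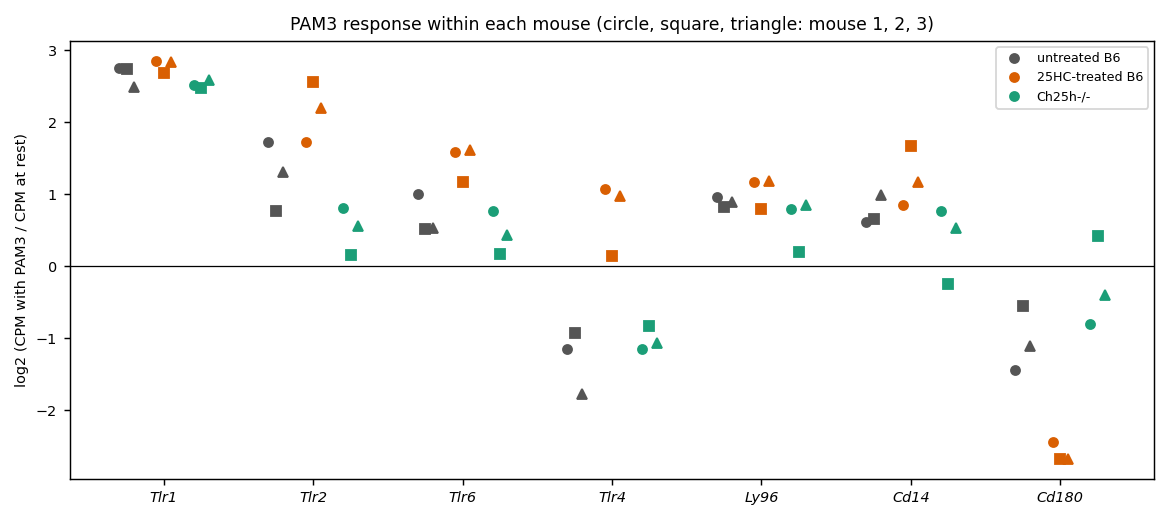
Log2 ratio of the CPM with PAM3 to the CPM at rest of the same mouse number for 7 of the 8 genes (Tlr5, whose ratios are far lower, is left out). Tlr4 lies below 0 in all untreated B6 and Ch25h-/- mice and above 0 in all 3 mice after 25HC, and Cd180 lies lowest after 25HC.

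Ly96 encodes MD-2, which binds the lipid of lipopolysaccharide for TLR4 (chr1:16688051-16709611, plus strand). With PAM3 and no 25HC it rose where Tlr4 fell, while with 25HC at rest both fell. It had 13.6, 16.1 and 15.6 CPM in untreated B6 cells at rest and 26.6, 28.3 and 29.0 CPM with PAM3. With 25HC the values were 9.46, 12.03 and 8.43 CPM at rest and 21.2, 20.9 and 19.1 CPM with PAM3. The 25HC-treated libraries were below the untreated ones in both states with no overlap. The falls were 1.51-fold at rest (-0.60 ± 0.17 SE, edgeR adjusted p = 0.0177) and 1.37-fold with PAM3 (-0.45 ± 0.17, adjusted p = 0.0348). Either call was lost when single libraries were left out, with adjusted p up to 0.0989 without 25HC-treated mouse 3 at rest and up to 0.113 without 25HC-treated mouse 3 with PAM3, and the second also on library totals alone (-0.39, adjusted p = 0.0601). PAM3 raised Ly96 1.85-fold in untreated (edgeR adjusted p = 0.000275), 2.05-fold in 25HC-treated (adjusted p = 9.71e-05) and 1.5-fold in Ch25h-/- cells (0.58, adjusted p = 0.00727). The last was 0.57 with an adjusted p of 0.055 when only the compared groups were fitted.

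Per kb, Ly96 averaged 0.359 of Tlr4 in untreated B6 cells at rest and 1.62 of it with PAM3, a 4.50-fold rise of the ratio. With 25HC and PAM3 the ratio was 0.434, 3.73-fold below that with PAM3 alone. It rose 3.07-fold with PAM3 in Ch25h-/- cells, to 1.33. The ranges do not overlap in these 3 comparisons, each with an exact permutation p of 0.1, the smallest possible. They overlap in the other 4. The log2 ratio differed by -0.04 with 25HC at rest (exact permutation p = 0.9), 0.31 with PAM3 in 25HC-treated cells (p = 0.3), 0.27 between genotypes at rest (p = 0.6) and -0.28 between genotypes with PAM3 (p = 0.3).

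Cd14, the co-receptor that passes ligand to TLR4 and TLR2 (chr18:36725067-36726798, minus strand), had the highest level per kb of the 8 genes in every group. It rose with 25HC in both states. Untreated B6 cells at rest had 938, 696 and 726 CPM and 25HC-treated cells 2417, 1552 and 2101 CPM. With PAM3 the values were 1431, 1101 and 1440 CPM without and 4378, 4924 and 4753 CPM with 25HC. No untreated library reached a 25HC-treated one in the same state. The rises were 2.57-fold at rest (1.36 ± 0.20 SE, edgeR adjusted p = 0.00039) and 3.54-fold with PAM3 (1.82 ± 0.20, adjusted p = 7.85e-06). PAM3 itself raised Cd14 1.68-fold in untreated (0.75 ± 0.20, edgeR adjusted p = 0.00404) and 2.32-fold in 25HC-treated cells (1.21 ± 0.20, adjusted p = 0.000106). The 2 responses differed by 0.46 with a 95% interval from -0.15 to 1.07 (adjusted p = 0.226).

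In Ch25h-/- cells Cd14 had 507, 653 and 483 CPM at rest and 867, 552 and 696 CPM with PAM3. All 3 libraries lay below all 3 untreated B6 libraries in each state. The difference was -0.52 ± 0.20 at rest (edgeR adjusted p = 0.826, unadjusted p = 0.0186) and -0.91 ± 0.20, or 1.88-fold, with PAM3 (adjusted p = 0.0698, unadjusted p = 0.000351). The comparison with PAM3 passed the threshold with DESeq2 (-0.89, adjusted p = 0.00297), with the replicate number as a block (-0.92, adjusted p = 0.0195) and without the Ch25h-/- library at rest of mouse 2 (-0.91, adjusted p = 0.0429). The genotype and 25HC comparisons of Cd14 share the untreated B6 libraries. The PAM3 response in Ch25h-/- cells was 0.36 ± 0.20 (adjusted p = 0.122), and 0.50 (adjusted p = 0.0482) without Ch25h-/- mouse 2 with PAM3.

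**Figure D4:**
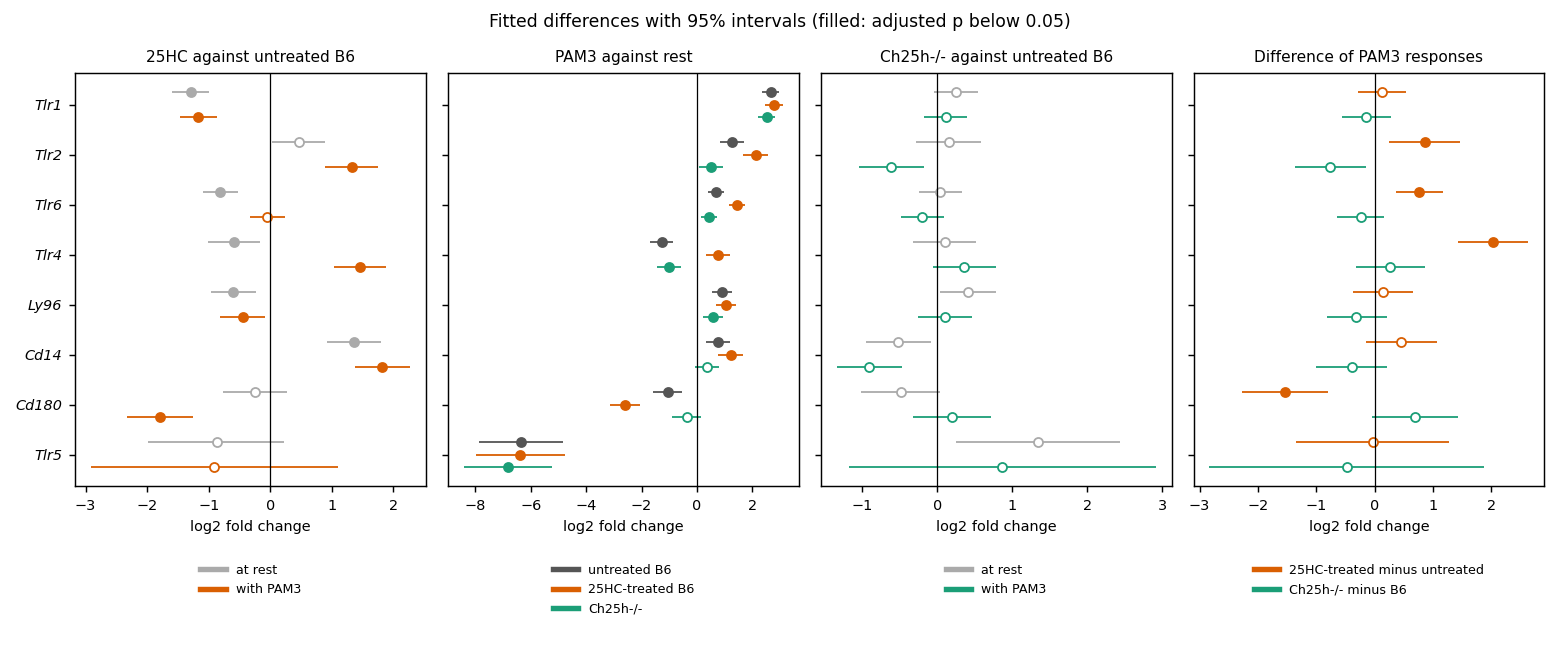
Fitted log2 fold changes of the 8 genes with 95% intervals for 25HC, PAM3 and genotype and for the differences between PAM3 responses. Filled points passed an adjusted p of 0.05 in edgeR's quasi-likelihood test. In the right panel Tlr2, Tlr6 and Tlr4 lie above 0 and Cd180 below it for 25HC (0.86, 0.76, 2.04 and -1.54), and in the genotype panel no point is filled.

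Cd180 (chr13:102693558-102739629, plus strand, overlapping Mast4 on the other strand, whose mean was 1.69 CPM) was the member lowered furthest by 25HC in the presence of PAM3. It had 435, 273 and 382 CPM in untreated B6 cells at rest and 293, 318 and 303 CPM after 25HC, which overlap (-0.25 ± 0.24 SE, edgeR adjusted p = 0.456). With PAM3 the untreated cells had 160, 186 and 178 CPM and the 25HC-treated cells 53.9, 50.04 and 47.5 CPM. The latter were 3.46-fold lower with no overlap (-1.79 ± 0.25, edgeR adjusted p = 4.15e-05). PAM3 lowered Cd180 2.08-fold in untreated (-1.06 ± 0.24, edgeR adjusted p = 0.0014) and 6.04-fold in 25HC-treated cells (-2.59 ± 0.25, adjusted p = 8.2e-07), a difference of -1.54 ± 0.34 (adjusted p = 0.00519). In Ch25h-/- cells it had 364, 140 and 273 CPM at rest and 209, 187 and 207 CPM with PAM3 (-0.37 ± 0.24, edgeR adjusted p = 0.196). Without the library at rest of mouse 2, the lowest of the 3, the change was -0.66 with an adjusted p of 0.00286.

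Ly86, which encodes the MD-1 partner of CD180, fell in the same comparison and also at rest. It averaged 269 ± 66.0 CPM (SD) in untreated B6 cells at rest and 127 ± 45.8 CPM after 25HC (-1.08, edgeR adjusted p = 0.0334). With PAM3 it averaged 60.6 ± 14.8 CPM without and 19.0 ± 6.247 CPM with 25HC (-1.67, adjusted p = 0.00145). B cells also carry CD180. Of the B cell markers, Cd79b was at 7.64 to 17.1 CPM with PAM3 and at 0.860 to 1.57 CPM with 25HC and PAM3, and its part in the Cd180 difference was not tested. In the same 2 groups Pax5 was at 0 in all libraries, and Cd79a and Ms4a1 were at most 0.102 and 0.0844 CPM. In these bulk libraries fewer cells that carry a transcript and less of it per cell cannot be told apart.

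Tlr5, the flagellin receptor (chr1:182954788-182976044, plus strand), was nearly lost with PAM3 in every kind of cell. At rest it had 10.6, 16.8 and 11.7 CPM in untreated, 5.74, 9.74 and 5.92 CPM in 25HC-treated and 10.7, 69.4 and 19.7 CPM in Ch25h-/- cells. With PAM3 it had 3, 25 and 7 counts in untreated, 9, 5 and 4 counts in 25HC-treated and 3, 10 and 6 counts in Ch25h-/- libraries. All PAM3 libraries were below all resting libraries. The fitted falls were 81.4-fold (-6.35 ± 0.70 SE, edgeR adjusted p = 2.17e-06), 83.2-fold (-6.38 ± 0.74, adjusted p = 3.99e-06) and 113-fold (-6.83 ± 0.73, adjusted p = 1.76e-06). Without the Ch25h-/- library at rest of mouse 2 the last was 52.0-fold (-5.70, adjusted p = 1.8e-07). With so few counts the fold sizes are imprecise, and an effect of 25HC with PAM3 was not detectable at this depth (-0.91, 95% interval from -2.91 to 1.10).

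At rest the 25HC-treated libraries held less Tlr5 than the untreated ones with no overlap, lower in 3 of 3 mice. The change was -0.87 ± 0.51 with an edgeR adjusted p of 0.213. With the animal as a block it was -0.88 with an adjusted p of 0.0177, and without the Ch25h-/- library of mouse 2 at rest it was -0.88 with an adjusted p of 0.0464. That library held 69.4 CPM of Tlr5 and also the highest neutrophil and progenitor sum, and the part of such cells in its Tlr5 level was not tested.

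Between genotypes no member passed the threshold. At rest 0 of 8 members were called and 0.00785% of all tested genes, 1 gene, which was Ch25h itself. Without the Ch25h-/- library at rest of mouse 2, Ch25h was at -6.65 with an edgeR adjusted p of 0.0744. The 1 gene then called was higher in Ch25h-/- cells, so it was not Ch25h. Over all genes the count at rest was 14 with the replicate number as a block, 21 with DESeq2, and 0 with only the compared groups in the fit or without Ch25h-/- mouse 3 at rest, with 0 members called by the block or DESeq2. With PAM3 0 of 8 were called and 0.173% of all tested genes (0.0471% higher and 0.126% lower). Ch25h with PAM3 (-5.64, edgeR adjusted p = 0.0383) lost its call in 11 of 27 alternatives, so the genotype test could miss the targeted gene. Ch25h was low there also in untreated B6 cells, at 1.66 to 3.55 CPM. The libraries of the 2 genotypes did not overlap for 2 of 8 members at rest, Tlr1 and Cd14, where 10.2% of all tested genes did not, and for 5 of 8 with PAM3, where 20.4% did not. With PAM3 these were Tlr2, Tlr6 and Cd14, lower in Ch25h-/- cells, and Tlr4 and Cd180, higher in them. The PAM3 responses of the 2 genotypes differed for 0 of 8 members in edgeR and 0% of all tested genes. At an unadjusted p under 0.05 there were 3 members at rest (Tlr5, Cd14 and Ly96) and 5.53% of all tested genes, 2 with PAM3 (Tlr2 and Cd14) and 14%, and 1 for the difference of responses (Tlr2) and 4.69%. Without the Ch25h-/- library at rest of mouse 2 the differences at rest were 0.21 in place of 1.34 for Tlr5, 0.16 in place of 0.41 for Ly96 and -0.67 in place of -0.52 for Cd14. The difference of PAM3 responses for Tlr5, called in neither fit, was then 0.65 in place of -0.48. DESeq2 called Cd14 with PAM3 and no member in the other 2 comparisons. The 95% intervals of the genotype differences were narrow for Tlr1 (from -0.05 to 0.54 at rest and from -0.18 to 0.40 with PAM3) and wide for Tlr5 (from -1.18 to 2.91 with PAM3).

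The order of the genes changed between states on the scale of counts per kb. In untreated B6 cells at rest the mean levels were 454 CPM per kb for Cd14, 80.6 for Cd180, 49.96 for Tlr2, 41.8 for Tlr4, 23.6 for Tlr1, 14.8 for Ly96, 6.27 for Tlr6 and 2.73 for Tlr5. With PAM3 Tlr1, at 149 CPM per kb, and Tlr2, at 120, came next to Cd14 at 764, and Cd180 was at 38.7. With 25HC and PAM3 Cd14 was at 2705 CPM per kb and Tlr2 at 299, followed by Tlr1 at 66.5 and Tlr4 at 47.0. The spread of group means was widest for Tlr5, 346-fold from lowest to highest and 158-fold without the Ch25h-/- library at rest of mouse 2, then 16.7-fold for Tlr1, 8.55-fold for Cd14, 7.20-fold for Cd180 and 5.99-fold for Tlr2. It was 3.01-fold for Ly96, 2.82-fold for Tlr6 and 2.74-fold for Tlr4. Neighbouring groups in the order overlapped for Tlr1 in untreated B6 and Ch25h-/- cells with PAM3 only, for Tlr2 in all resting groups and Ch25h-/- with PAM3, and for Cd14 in Ch25h-/- cells in both states and untreated B6 cells at rest.

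The nearest patterns to each gene were sought among 9349 genes by the root mean square (RMS) difference of centred group mean log2 CPM over the 6 groups, as a description. Tsku (0.28), Mras (0.29) and Emr1 (0.30), the F4/80 antigen of macrophages, were nearest to Tlr1. Emr1 averaged 2641 ± 261 CPM (SD) in untreated B6 cells at rest, 1424 ± 238 CPM after 25HC, 12375 ± 728 CPM with PAM3 and 6125 ± 754 CPM with both. Pstpip2 (0.15), Pim3 (0.17) and Zbtb18 (0.19) were nearest to Tlr2, Abcc5 (0.13), Rbm12b2 (0.14) and Dstn (0.15) to Tlr6, and Mospd1 (0.14), Fnip1 (0.15) and Ccp110 (0.15) to Tlr4. Stap1 (0.18), Uchl1 (0.21) and Srxn1 (0.25) were nearest to Cd14, and Rgs18 (0.16), Gapt (0.19) and Lrp5 (0.20) to Cd180. Among the members themselves, Tlr6 and Ly96 were the closest pair of those compared (0.23). Tlr2 and Cd14 were 0.58 apart, and the nearest member to Tlr4 was Tlr6 at 0.82.

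The endosomal TLRs tested here, which sense nucleic acids, fell where they changed. Of the 7 listed, 5 were tested, and 3 of these were lower with 25HC at rest, 3 with 25HC and PAM3, and all 5 with PAM3 in each kind of cell, with none higher. Of all tested genes, 11.4%, 23.6% and 30.8% (untreated), 30.4% (25HC-treated) and 32.1% (Ch25h-/-) were lower in these comparisons. Tlr7, for single-stranded RNA, fell from 557 ± 22.3 to 251 ± 62.6 CPM (SD) with 25HC at rest (-1.15, edgeR adjusted p = 0.00164), and Tlr8 from 447 ± 77.6 to 137 ± 64.5 CPM (-1.70, adjusted p = 0.000722). Tlr9, for unmethylated CpG DNA, averaged 50.8 ± 17.7 CPM with PAM3 and 6.16 ± 2.01 CPM with 25HC and PAM3 (-3.03, edgeR adjusted p = 8.7e-05). Tlr13, for bacterial ribosomal RNA, was at 663 ± 188 CPM at rest and 90.9 ± 11.4 CPM with PAM3.

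Of the 6 folding and trafficking genes, 4 rose with PAM3 in untreated cells, where 31.3% of all tested genes did, and 1 was lower with 25HC and PAM3 against PAM3 alone, namely Unc93b1, the escort of endosomal TLRs (-1.0, edgeR adjusted p = 0.0043). Among 9 other surface partners, 1 was higher and 4 lower in that comparison, where 21.5% of all tested genes were higher and 23.6% lower. Clec7a, the β-glucan receptor dectin-1, was at 75.9 ± 34.3 CPM (SD) in untreated cells at rest, 5.82 ± 1.91 CPM with PAM3 and 69.6 ± 15.1 CPM with 25HC and PAM3 (3.60 against PAM3 alone, edgeR adjusted p = 6.34e-05). The scavenger receptor Marco was lower, at 1210 ± 168 CPM with PAM3 and 315 ± 122 CPM with 25HC and PAM3.

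The 10 adaptors and proximal kinases split. With 25HC at rest 3 rose and none fell, where 14.8% of all tested genes rose, namely Irak2 (0.63, edgeR adjusted p = 0.0198), Ticam1 (0.49, adjusted p = 0.00755) and Traf3 (0.62, adjusted p = 0.0179). With PAM3, 25HC raised 2 and lowered 2, shares near the 21.5% and 23.6% of all tested genes. Traf6, the ubiquitin ligase downstream of the IRAK kinases, was higher (0.94, edgeR adjusted p = 2.78e-05), and Myd88, the adaptor of most TLRs, was lower (-0.58, adjusted p = 0.00228). Of 8 inhibitors, 3 were higher and 2 lower with 25HC and PAM3, against the same shares of all tested genes. Tnfaip3, which encodes A20, rose by 1.80 on the log2 scale, and Sigirr fell by 2.08 (edgeR adjusted p = 8.57e-07), from 1.49 ± 0.185 to 0.354 ± 0.0186 CPM. Irak3, an inhibitory kinase, averaged 45.2 ± 3.36 CPM at rest, 445 ± 38.8 CPM with PAM3 and 543 ± 13.8 CPM with 25HC and PAM3.

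The 8 mediators listed as targets of TLR2 signalling stand at the far end of the pathway. PAM3 raised 8 of 8 in untreated and in 25HC-treated cells and 6 of 8 in Ch25h-/- cells, where 31.3%, 28.5% and 29.9% of all tested genes rose. With 25HC, 2 were higher at rest, against 14.8% of all tested genes, and 6 with PAM3, against 21.5%, and none were lower. Cxcl2, a neutrophil chemoattractant, averaged 81.2 ± 63.4 CPM (SD) with PAM3 and 2020 ± 381 CPM with 25HC and PAM3 (4.64, edgeR adjusted p = 0.000304). Il6 was higher by 4.30 (adjusted p = 0.000188) in the same comparison, while Tnf was at 221 ± 41.0 and 314 ± 58.2 CPM (0.51, adjusted p = 0.399). Between genotypes edgeR called 0 of the 46 tested genes of these 6 lists, at rest and with PAM3. At an unadjusted p under 0.05 there were 2 at rest, where 5.53% of all tested genes passed, and 12 with PAM3, where 14% did. DESeq2 called 0 at rest, against 21 of all 13212 genes it tested, and 3 with PAM3, against 388 of 12847. With PAM3 the 8 mediators were all lower in Ch25h-/- than in B6 cells in the edgeR fit. Their median log2 difference was -2.09 (from -2.70 to -0.64), against -0.04 over all tested genes. At rest it was -0.10 (from -4.61 to 1.21), against -0.01.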

How the data were processed

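Polyadenylated RNA of 18 libraries was sequenced with stranded Illumina kits, per the labels. The authors deposited 1 table of raw counts for each gene and library. Per the submitters' processing notes, reads were handled with FastQC 0.11.9, GSNAP, featureCounts of Subread 1.5.2 and edgeR 3.26.8 on GRCm38 (mm10). Whether counting used strand, how multi-mapping reads were treated and which annotation was used is not stated in the sources used here, so counts of overlapping genes and of the Tlr1 and Tlr6 paralogs are uncertain.

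Genes were kept with filterByExpr, scaled by TMM and modelled as 6 group means in edgeR 4.0.16 (limma 3.58.1, R 4.3.3) by the quasi-likelihood F test (robust, two-sided) with 12 residual degrees of freedom and Benjamini-Hochberg adjustment over 12741 genes. The biological coefficient of variation was 0.192. The SE is the size of the log2 fold change over the root of F, and 95% intervals use that SE. Gene positions and lengths came from GENCODE M21 and tables were made with Python 3.11.15. Alternatives were DESeq2 1.42.0 (size factors and Wald test), upper quartile factors, library totals, other filters, only the groups compared, each library left out, replicate 2 of every group left out and the replicate number as a block. The fit was tested on counts simulated independently for each library, with no effect of mouse or replicate number. That test therefore does not cover such effects. At totals of 14040513 to 150440297 counts, only Tlr5 with PAM3 was left with few counts among the members. The spread between libraries also limits precision, as for Tlr5 in Ch25h-/- cells at rest (33.3 ± 31.6 CPM, SD). No duplicate libraries were found.

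The members, the lists and the rule for the genes named were chosen with earlier results of these data known. The rule took all members, up to 3 genes of each pathway list with the smallest adjusted p in a comparison, the 3 nearest patterns to 6 members, Ch25h and cell type markers. The labels number the mice within each genotype. Deviations from group means of libraries with the same number correlated within B6 at rest (r = 0.448, 0.581 and 0.348 between untreated and 25HC-treated cells) and less with PAM3 (0.406, 0.377 and -0.162). Between genotypes, whose mice differ, r was 0.574, 0.705 and 0.327 for resting cells and 0.322, 0.459 and 0.0949 under PAM3. By the rule that every pair exceed 0.1, resting cells pass across genotypes, and those with PAM3 fail through the pair at 0.0949. The rule has no reference distribution. Since these mice differ, passing it cannot show that libraries are paired. Within B6 the rule fails between untreated and 25HC-treated cells with PAM3. It also fails between rest and PAM3 in untreated cells (0.226, 0.306 and -0.0777). It holds between rest and PAM3 in 25HC-treated (0.211, 0.196 and 0.114) and Ch25h-/- cells (0.193, 0.242 and 0.197). Ratios within mice and counts of mice therefore rest on the labels. What same-numbered libraries of different mice share was not tested. Libraries of 1 mouse share their marrow, yet the main fit treats all 18 libraries as independent. Its p-values therefore measure the spread between libraries within groups, with no term for the mouse. 1 of the B cell markers, and the sum that holds it, is not reported here.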

Additional observations from a re-analysis of the deposited data

Results flagged for a closer look

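For 4 of the 8 genes the response to PAM3 differed between 25HC-treated and untreated B6 cells by an interaction test (edgeR, adjusted over all tested genes). The difference was 2.04 on the log2 scale for Tlr4, which fell with PAM3 in untreated cells and rose in 25HC-treated cells in 3 of 3 mice. It was 0.86 for Tlr2 and 0.76 for Tlr6, which rose in both. The Tlr2 difference lost its call in 9 of 27 alternatives, 8 of them single libraries left out, and was 0.43 (edgeR adjusted p = 0.175) without replicate 2 of every group. The difference was -1.54 for Cd180, which fell in both. Of all tested genes 28.3% showed such a difference.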

How the results depend on the processing

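Over 72 member values (8 genes in 9 comparisons) and 27 alternatives, no value that passed the threshold changed direction, and 30 of the 37 calls stayed called in every alternative. The count of members called for 25HC at rest was 5 and ranged from 3 to 6 with single libraries left out. It was 8 without replicate 2 of every group. Over the whole table that comparison had 3334 genes, from 1524 to 3980 with single libraries left out and 5103 without replicate 2 of every group. The count of members called for Ch25h-/- with PAM3 was 0, and from 0 to 1 with single libraries left out. It was 1 without replicate 2 of every group, with the replicate block and with the DESeq2 Wald test. The member was Cd14 each time. The same comparison had 22 genes over the whole table, 368 with the replicate block, 384 without replicate 2 of every group and 388 with DESeq2, but 0 with only the groups compared and from 1 (without Ch25h-/- mouse 3 with PAM3) to 254 (without Ch25h-/- mouse 1 with PAM3) with single libraries left out. The replicate block changed 1 other member call, Tlr5 with 25HC at rest. Library totals alone moved the median of all genes by -0.20, -0.18 and -0.16 for PAM3 in untreated, 25HC-treated and Ch25h-/- cells. Calls in the pathway lists ranged from 1 to 5 for folding and trafficking genes with PAM3 in untreated cells (main value 4), from 0 to 4 for mediators with 25HC at rest (2) and from 0 to 5 for mediators in Ch25h-/- with PAM3 (0). Depth limits only Tlr5 with PAM3, at 3 to 25 counts a library.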
